A study of Homo sapiens with 29 samples.

Results

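The genes described here are 9 members of the AKT, SGK and S6 kinase branch of PI3K signalling, measured in 2 human prostate cancer cell lines treated with kinase inhibitors and enzalutamide. They are taken by symbol, and were chosen with earlier results of these data known: SGK1, SGK3, AKT1, AKT2, PDPK1, RPS6KB1, RPS6KB2, PHLPP1 and PIK3CB, which are 9 of the 63677 features counted. All 9 were found in both count tables, and all 9 passed the filter on low counts in both lines. RNA-seq libraries of total RNA came from C4-2, a castration-resistant line derived from LNCaP, and from 22Rv1, a castration-resistant line derived from a xenograft. C4-2 cells were grouped as CC-115+Enza, NU7441+Enza, CC-223+Enza, CC-115, NU7441, CC-223, Enza and untreated Ctrl, with 3 libraries in each of these 8 groups. 22Rv1 cells were either treated with CC-115, in 2 libraries, or untreated as Control, in 3 libraries. Treatment lasted 24 h with every compound at 1 µM, in hormone-proficient medium, per the labels. The labels list NU7441 and CC-115 as inhibitors of DNA-PK, CC-223 as a TOR kinase inhibitor, and enzalutamide (Enza) as an antagonist of the androgen receptor. CC-115 is also known to inhibit TOR kinase. Nothing in the labels says whether replicate libraries came from separate cultures, so p-values here measure the spread between libraries, which may be technical.

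PI3K makes a membrane lipid that brings AKT kinases to PDPK1, which phosphorylates their activation loop, and TOR complexes phosphorylate a second site in AKT, SGK and S6 kinases. AKT, SGK and S6 kinases are related AGC kinases, with overlapping substrates that control growth, translation, survival and nutrient transport. SGK1 is known as a gene induced by glucocorticoid, mineralocorticoid and androgen receptors, and its RNA and protein turn over fast.

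Total counts per library were 29.58 to 44.86 M in C4-2 and 31.61 to 44.91 M in 22Rv1. All 8 markers of prostate luminal epithelium that were checked exceeded 1 CPM (counts-per-million) in every library of both lines, while summed stromal, immune and endothelial markers stayed at or below 12.8 CPM. Of the C4-2 libraries, CC-115+Enza 1 and Enza 1 stood apart, at root mean square log2 distances of 0.662 and 0.648 from the rest of their groups. In 22Rv1, CC-115 2 and Control 3 had 26007 and 26598 features above 0, against 29948 to 30500 in the other 3 libraries. Where a call named below depended on any of these 4 libraries, values are given with and without it.

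SGK1, a kinase that regulates ion transport and nutrient uptake, showed the widest range of the 9 genes, and its direction of change under TOR-inhibiting compounds depended on enzalutamide. Without enzalutamide, CC-115 and CC-223 each raised it, and with enzalutamide each lowered it. Levels are given as CPM after TMM scaling, in which library totals are adjusted for composition. CC-115+Enza libraries had 0.516, 0.873 and 1.15 CPM of SGK1, from 21, 37 and 54 reads. CC-223+Enza libraries had 2.69, 3.23 and 3.39 CPM, and NU7441+Enza libraries had 5.80, 6.04 and 5.92 CPM. These compared with 4.99, 6.30 and 5.81 CPM in the libraries with Enza alone. All CC-115+Enza and CC-223+Enza libraries were below all Enza libraries, and NU7441+Enza libraries lay within the range of Enza. Such levels are shares of a library, so fewer cells of a type and less RNA per cell cannot be told apart.

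Among cells without enzalutamide, SGK1 measured 13.45, 13.40 and 15.43 CPM in CC-115 libraries, and 8.91, 6.32 and 8.43 CPM in NU7441 libraries. In CC-223 libraries it measured 23.27, 20.44 and 19.54 CPM, against 9.66, 8.33 and 9.27 CPM in Ctrl libraries. CC-223 and CC-115 libraries were all above Ctrl, while NU7441 and Ctrl overlapped. From low to high, the mean levels ran CC-115+Enza, CC-223+Enza, Enza, NU7441+Enza, NU7441, Ctrl, CC-115 and CC-223. In that order, Enza and NU7441+Enza did not differ beyond their spread (adjusted p = 0.909 by edgeR's quasi-likelihood test), nor did NU7441 and Ctrl (adjusted p = 0.523).

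**Figure D1:**
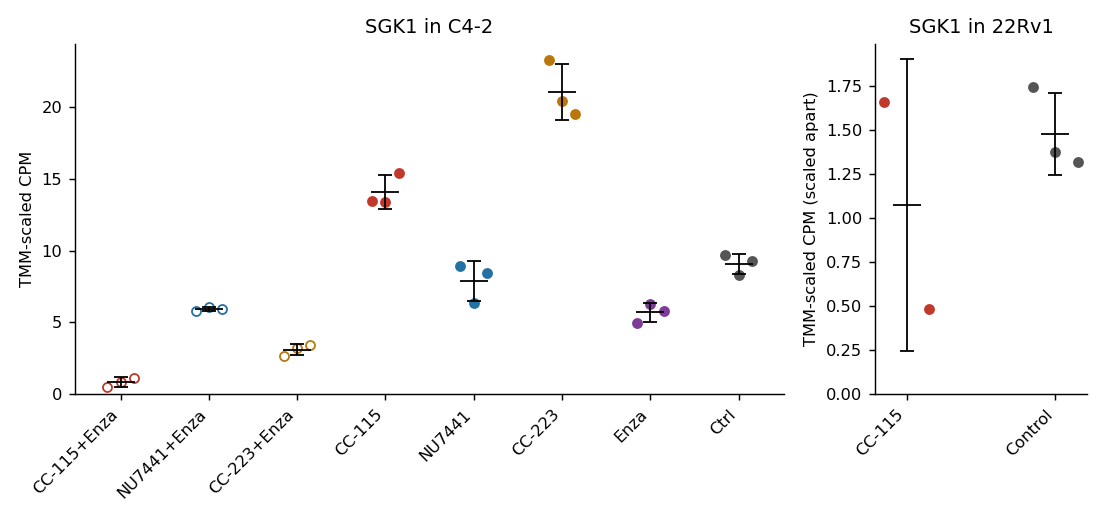
SGK1 level in TMM-scaled CPM (vertical axis, linear from 0) in each library, by group, with C4-2 on the left and 22Rv1 on the right on its own axis. Points are libraries, open where Enza was added to an inhibitor, and bars are the mean ± SD. The CC-115+Enza libraries, at 0.516 to 1.15 CPM, are the lowest in C4-2.

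The log2 fold change of SGK1 was -2.73 ± 0.19 (SE) for CC-115+Enza against Enza, a 6.65-fold lower level, with an adjusted p of 4.21e-12 (edgeR, n = 3 libraries a group). For CC-223+Enza against Enza it was -0.88 ± 0.16, a 1.84-fold lower level (adjusted p = 2.41e-04, edgeR). Without enzalutamide the same comparisons against Ctrl gave 0.63 ± 0.15 for CC-115 (adjusted p = 5.85e-04) and 1.21 ± 0.15 for CC-223 (adjusted p = 1.49e-06). Enza alone lowered SGK1 by a log2 fold change of -0.67 ± 0.15 against Ctrl (adjusted p = 3.11e-03).

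Read the other way, adding enzalutamide lowered SGK1 by far more in cells that had CC-115 or CC-223. The change was -4.04 ± 0.18 for CC-115+Enza against CC-115, 16.4-fold lower, and -2.76 ± 0.16 for CC-223+Enza against CC-223, 6.79-fold lower. The interaction term, which tests whether the enzalutamide effect with an inhibitor differs from that without, was -3.37 ± 0.24 for CC-115 (adjusted p = 9.62e-10) and -2.09 ± 0.22 for CC-223 (adjusted p = 4.27e-06). For NU7441 it was 0.26 (95% interval -0.19 to 0.70, adjusted p = 0.720). NU7441+Enza libraries were all below NU7441 libraries, by a log2 fold change of -0.42 ± 0.15 that missed the threshold (adjusted p = 0.124). That comparison passed it without NU7441 2, at -0.57 (adjusted p = 0.0256), and without Enza 1 and CC-115+Enza 1, at -0.42 (adjusted p = 5.37e-03).

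At matched dose and time, CC-115 and CC-223 also differed from each other. SGK1 was lower in CC-115+Enza than in CC-223+Enza by a log2 fold change of -1.85 ± 0.19 (adjusted p = 1.45e-08). It was also lower in CC-115 than in CC-223 without enzalutamide, by -0.58 ± 0.14 (adjusted p = 1.49e-03). NU7441 was 2.67-fold below CC-223 (log2 fold change -1.42 ± 0.15, adjusted p = 5.47e-07). Each SGK1 change called so far kept its direction and its call in every alternative setting, including without CC-115+Enza 1 and Enza 1. Of the uncalled SGK1 comparisons named so far, only NU7441+Enza against NU7441 was followed over all settings.

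**Figure D2:**
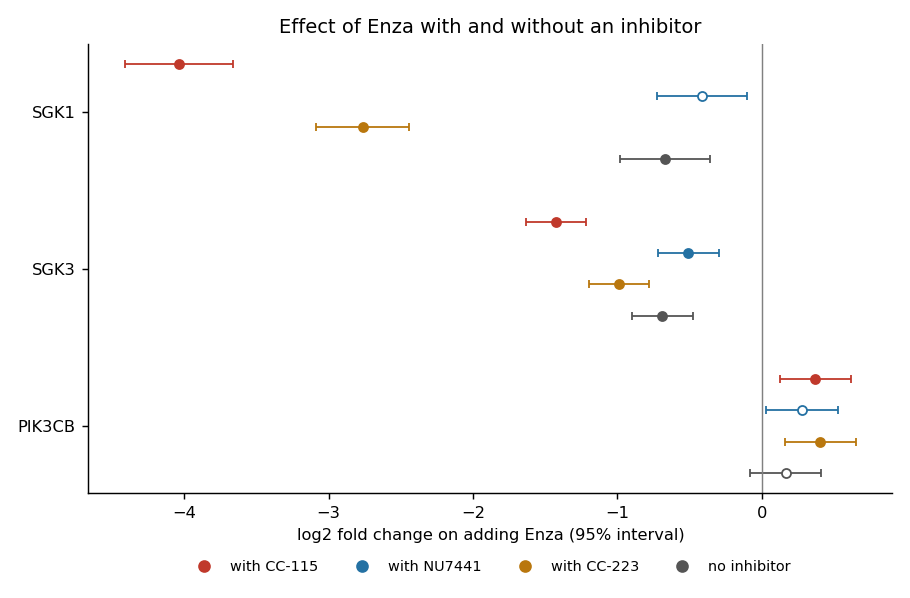
Log2 fold change on adding Enza (horizontal axis) for SGK1, SGK3 and PIK3CB, with an inhibitor present or with none (Enza against Ctrl). Points are edgeR estimates with 95% intervals, filled where the adjusted p was under 0.05. SGK1 lies at -4.04 with CC-115, at -2.76 with CC-223 and at -0.67 with no inhibitor.

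The SGK1 gene spans chr6:134490384-134639250 on the minus strand of hg19 (ENSG00000118515). RefSeq on GRCh38.p14 lists 3 start sites for it, whose promoter windows, from 250 bases before to 50 after each start, are shown because the gene is known as a target of steroid receptors. They were searched on both strands for the half-site AGAACA bound by androgen and glucocorticoid receptors and for the FOXO motif GTAAACA, which do not overlap each other. Both are printed in capitals where found, and sequences are 5′ to 3′ on the minus strand.
SGK1 chr6:134318063-134318362: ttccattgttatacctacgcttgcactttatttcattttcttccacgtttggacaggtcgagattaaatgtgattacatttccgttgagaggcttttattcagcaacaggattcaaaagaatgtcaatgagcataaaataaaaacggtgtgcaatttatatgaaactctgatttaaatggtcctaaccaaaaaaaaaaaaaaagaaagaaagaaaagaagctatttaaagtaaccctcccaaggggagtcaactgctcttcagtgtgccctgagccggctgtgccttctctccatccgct
SGK1 chr6:134177812-134178111: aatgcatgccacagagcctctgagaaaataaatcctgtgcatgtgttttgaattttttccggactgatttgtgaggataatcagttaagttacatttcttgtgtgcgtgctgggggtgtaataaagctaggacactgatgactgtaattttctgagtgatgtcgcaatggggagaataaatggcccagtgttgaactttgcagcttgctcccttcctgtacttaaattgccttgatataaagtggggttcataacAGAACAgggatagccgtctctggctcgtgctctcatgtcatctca
SGK1 chr6:134174817-134175116: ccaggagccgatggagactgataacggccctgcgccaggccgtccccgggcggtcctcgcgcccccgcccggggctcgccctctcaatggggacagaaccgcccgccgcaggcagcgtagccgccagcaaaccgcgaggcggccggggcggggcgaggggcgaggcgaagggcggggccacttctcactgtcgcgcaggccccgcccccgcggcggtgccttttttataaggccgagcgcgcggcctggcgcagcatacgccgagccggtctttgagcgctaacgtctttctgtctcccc
The window starting at 134177812 held 1 half-site, the other 2 held none, and no FOXO motif was found in any of the 3. A window of AKT2, at chr19:40265302-40265601, also held 1 half-site. Of 35116 promoter windows of this length, 14.79% held the half-site and 3.42% the FOXO motif on either strand. A match of this kind describes the letters of the window and says nothing of binding, and reads here do not tell the start sites apart.

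SGK3, the family member with a lipid-binding PX domain that is held at endosomes, fell with enzalutamide to between 7.83 and 10.6 CPM, with or without an inhibitor. CC-115+Enza libraries had 7.83, 10.6 and 9.45 CPM, NU7441+Enza libraries 9.38, 9.62 and 9.71, and CC-223+Enza libraries 9.18, 9.05 and 9.17. Enza libraries had 9.37, 9.38 and 8.54 CPM, against 16.1, 13.3 and 14.6 CPM in Ctrl libraries. Every library with enzalutamide was below every Ctrl library.

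Without enzalutamide, SGK3 measured 24.4, 24.1 and 26.6 CPM in CC-115 libraries, and 14.0, 12.9 and 14.0 CPM in NU7441 libraries. CC-223 libraries had 18.2, 18.0 and 18.2 CPM. CC-115 libraries were the highest and did not overlap any other group. SGK3 rose under CC-115 by 0.77 ± 0.10 on the log2 scale (adjusted p = 2.58e-07) and fell under Enza by 0.69 ± 0.10 (adjusted p = 2.40e-05). CC-115+Enza differed from Enza by 0.03 (95% interval -0.18 to 0.24, adjusted p = 0.804), and without CC-115+Enza 2 by -0.04. With protein-coding genes only it was higher by 0.19 (adjusted p = 0.0452). The fall on adding enzalutamide was -1.43 ± 0.10 with CC-115 (adjusted p = 2.55e-11), -0.51 ± 0.10 with NU7441 (adjusted p = 1.24e-03) and -0.99 ± 0.10 with CC-223 (adjusted p = 3.34e-08).

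For SGK3 the interaction with CC-115 was -0.74 ± 0.14 (adjusted p = 2.58e-03), but it did not pass in a fit of only the groups compared (-0.68, adjusted p = 0.124). The interaction with CC-223 was -0.30 (95% interval -0.60 to -0.01, adjusted p = 0.507). A smaller rise of SGK3 under CC-223, 0.31 ± 0.10 against Ctrl (adjusted p = 0.0252), did not stay past the threshold in all settings. The call was lost without Ctrl 2 (0.18, adjusted p = 0.276), without Ctrl 3 (0.24, adjusted p = 0.130) or without any 1 of the CC-223 libraries (0.26, adjusted p = 0.112 to 0.128). The exons of SGK3 (chr8:67624653-67774257, plus strand of hg19) share 41.9% of their bases with ENSG00000270024 on the same strand, which held 21 reads over the C4-2 libraries against 11555 for SGK3. How reads in the shared bases were assigned is not given in the sources used here, so SGK3 levels are uncertain to that extent. No sequence of SGK3 is given.

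PIK3CB encodes the p110 beta catalytic subunit of PI3K. It fell under CC-115 and was higher with enzalutamide than without it in the presence of each inhibitor, a rise called with CC-115 and CC-223. With NU7441 the rise was 0.28 ± 0.12 in libraries that did not overlap, and it was not called (adjusted p = 0.241, edgeR). The interactions with enzalutamide were not called either, at 0.21 for CC-115, 0.11 for NU7441 and 0.24 for CC-223 (adjusted p = 0.555, 0.845 and 0.657). PIK3CB measured 89.2, 67.2 and 70.3 CPM in CC-115+Enza libraries, 112.2, 109.7 and 115.4 CPM in NU7441+Enza libraries, and 127, 125 and 127 CPM in CC-223+Enza libraries. Single compounds gave 61.8, 54.2 and 59.4 CPM with CC-115, 89.3, 92.1 and 96.9 CPM with NU7441, and 90.4, 108 and 87.8 CPM with CC-223. Enza libraries had 79.2, 99.8 and 116 CPM, against 83.2, 91.0 and 89.0 CPM in Ctrl. CC-115 libraries were below all Ctrl libraries, CC-223+Enza libraries were above all other groups, and Enza libraries straddled Ctrl.

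The log2 fold change of PIK3CB under CC-115 against Ctrl was -0.59 ± 0.12 (adjusted p = 1.88e-04, edgeR), and under CC-223+Enza against Ctrl 0.53 ± 0.12 (adjusted p = 1.00e-03). Both held in every alternative setting. Against CC-223, CC-115 was lower by -0.71 ± 0.12 without enzalutamide (adjusted p = 2.95e-05), and by -0.74 ± 0.12 with it (adjusted p = 1.19e-05). Enza alone gave 0.16 (95% interval -0.08 to 0.41, adjusted p = 0.365), which became 0.30 (adjusted p = 2.30e-03) without Enza 1 and CC-115+Enza 1, and -0.002 (adjusted p = 0.992) without Enza 3.

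Other PIK3CB calls that involve enzalutamide did not stay past the threshold in every fit with 1 library left out, most of them at similar fold changes. The rise of 0.37 ± 0.12 for CC-115+Enza against CC-115 (adjusted p = 0.0266) was 0.31, 0.37 and 0.23 without CC-115 2, CC-115 3 or CC-115+Enza 1, no longer called (adjusted p = 0.114, 0.0678 and 0.170). The rise of 0.41 ± 0.12 for CC-223+Enza against CC-223 (adjusted p = 0.0232) stayed at 0.36 to 0.42 without CC-223 1, CC-223 3, CC-223+Enza 1 or CC-223+Enza 3, where it was not called (adjusted p = 0.0525 to 0.102). Against Enza, CC-223+Enza was higher by 0.36 ± 0.12 (adjusted p = 0.0244), a call lost without Enza 1 (0.24, adjusted p = 0.123), and without CC-223+Enza 1 or CC-223+Enza 3 at 0.36 and 0.34 (adjusted p = 0.0627 and 0.0822). CC-115+Enza was lower than Enza by -0.38 ± 0.12 with overlapping libraries (adjusted p = 8.61e-03), and the call was lost without Enza 3 (-0.18, adjusted p = 0.216), CC-115+Enza 2 (-0.26, adjusted p = 0.0771) or CC-115+Enza 3 (-0.29, adjusted p = 0.0673). NU7441+Enza exceeded Ctrl by 0.36 ± 0.12 (adjusted p = 0.0435), and it was 0.28 to 0.34, not called, when any 1 of its 6 libraries was left out (adjusted p = 0.125 to 0.237).

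RefSeq lists 2 start sites for PIK3CB on the minus strand of GRCh38.p14, whose windows are shown because PIK3CB differed from SGK1 in sign when enzalutamide was added to CC-115 or CC-223. Neither motif was found in them.
PIK3CB chr3:138834879-138835178: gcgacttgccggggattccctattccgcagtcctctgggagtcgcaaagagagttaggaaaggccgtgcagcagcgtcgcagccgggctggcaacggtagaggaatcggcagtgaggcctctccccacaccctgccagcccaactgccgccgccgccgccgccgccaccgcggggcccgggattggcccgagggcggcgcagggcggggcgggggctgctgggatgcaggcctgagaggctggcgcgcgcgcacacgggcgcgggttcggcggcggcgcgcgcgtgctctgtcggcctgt
PIK3CB chr3:138707572-138707871: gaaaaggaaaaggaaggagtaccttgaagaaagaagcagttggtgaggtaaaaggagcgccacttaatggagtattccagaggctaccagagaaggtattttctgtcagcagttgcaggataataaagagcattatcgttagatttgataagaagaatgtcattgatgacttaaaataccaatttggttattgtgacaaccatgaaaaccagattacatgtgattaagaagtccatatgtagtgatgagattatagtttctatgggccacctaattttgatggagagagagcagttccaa

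PDPK1, the kinase that phosphorylates the activation loop of AKT, SGK and S6 kinases, was about 1.94-fold higher in cells given CC-115. CC-115+Enza libraries had 72.2, 87.8 and 77.2 CPM, and CC-115 libraries had 76.3, 81.7 and 80.5 CPM. All other C4-2 libraries lay between 37.8 and 43.7 CPM, among them the Enza libraries at 39.5, 37.8 and 38.8 CPM and the Ctrl libraries at 39.8, 43.4 and 39.5 CPM. No library with CC-115 overlapped one without it. The log2 fold change was 0.96 ± 0.09 for CC-115 against Ctrl (adjusted p = 5.25e-10), and 1.03 ± 0.09 for CC-115+Enza against Enza (adjusted p = 1.40e-10). CC-115 exceeded CC-223 by 0.94 ± 0.09 (adjusted p = 1.47e-09) and NU7441 by 0.91 ± 0.09 (adjusted p = 1.79e-09). PDPK1 has a near-identical copy on the same chromosome, so its counts may share reads with that copy and are uncertain to that extent. An antisense feature that overlaps 6.84% of its exon bases held 144 reads against 44355 for PDPK1.

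AKT1, the AKT isoform best known for promoting survival and growth, was lower than Ctrl in the combinations with CC-115 and CC-223. It measured 112, 153 and 146 CPM in CC-115+Enza libraries, 183, 183 and 186 CPM in NU7441+Enza libraries, and 142, 153 and 147 CPM in CC-223+Enza libraries. With single compounds it measured 161, 164 and 171 CPM in CC-115, 207, 178 and 191 CPM in NU7441, and 168, 168 and 176 CPM in CC-223. Enza libraries had 336, 198 and 185 CPM, against 219, 214 and 201 CPM in Ctrl libraries. Enza 1 was higher than any other C4-2 library, and CC-115+Enza 1 was the lowest. CC-115+Enza was below Ctrl by -0.63 ± 0.15 (adjusted p = 6.89e-04), and CC-223+Enza was below Ctrl by -0.52 ± 0.15 (adjusted p = 7.07e-03). NU7441+Enza libraries were also all below Ctrl, without a call (-0.20 ± 0.15, adjusted p = 0.415, edgeR). Against the inhibitor alone, neither CC-115+Enza (-0.275, adjusted p = 0.181) nor CC-223+Enza (-0.209, adjusted p = 0.466) was called. The interactions with enzalutamide were -0.455 for CC-115 and -0.389 for CC-223, not called (adjusted p = 0.260 and 0.558).

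Against Enza, AKT1 fell by 0.81 ± 0.15 in CC-115+Enza (adjusted p = 4.84e-05) and by 0.70 ± 0.15 in CC-223+Enza (adjusted p = 1.01e-03). Both sizes rested on Enza 1: without it they were -0.44 (adjusted p = 1.20e-03) and -0.37 (adjusted p = 0.0142). The CC-223+Enza call was lost in a fit of only the groups compared (-0.71, adjusted p = 0.0608). The CC-115 call against Ctrl, -0.35 ± 0.15 (adjusted p = 0.0476), was lost without Ctrl 1, Ctrl 2 or any 1 of the CC-115 libraries, at fold changes of -0.30 to -0.35 (adjusted p = 0.0949 to 0.162). CC-223 against Ctrl gave -0.31 ± 0.15 (adjusted p = 0.133) with libraries that did not overlap, and it passed the threshold without Enza 1 and CC-115+Enza 1 (adjusted p = 1.29e-05).

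AKT2, the isoform best known for insulin-stimulated glucose uptake, was called lower than Ctrl in the CC-115 groups. It measured 97.9, 102 and 101 CPM in CC-115+Enza libraries and 92.7, 98.7 and 96.8 CPM in CC-115 libraries, against 123, 129 and 123 CPM in Ctrl libraries. NU7441 libraries had 137, 141 and 131 CPM, CC-223 libraries 115.3, 112.7 and 125.5 CPM, and Enza libraries 156, 119 and 114 CPM. CC-115 libraries, with and without enzalutamide, were below all Ctrl libraries. So were the CC-223+Enza libraries, at 106, 113 and 108 CPM, without a call (-0.20 ± 0.10, adjusted p = 0.112, edgeR). Against Enza, CC-223+Enza gave -0.26 ± 0.10 (adjusted p = 0.0504). CC-115+Enza and CC-223+Enza did not differ beyond their spread (-0.115, adjusted p = 0.348). The fall under CC-115 was -0.38 ± 0.10 against Ctrl (adjusted p = 2.00e-03) and -0.51 ± 0.10 against NU7441 (adjusted p = 1.11e-04). NU7441 against Ctrl gave 0.13 (95% interval -0.07 to 0.33, adjusted p = 0.547).

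For AKT2 under CC-115+Enza the fall against Ctrl was -0.31 ± 0.10 (adjusted p = 7.18e-03), and the call was lost without Ctrl 2 (-0.27, adjusted p = 0.0524) or when totals were taken over protein-coding genes alone (-0.14, adjusted p = 0.131). Against Enza it was -0.37 ± 0.10 (adjusted p = 2.03e-03), a call lost without Enza 1 (-0.17, adjusted p = 0.0698). AKT2 in CC-115 was also below CC-223, by -0.29 ± 0.10 (adjusted p = 0.0170), and was not called at -0.25 to -0.18 without CC-223 1, CC-223 3 or any 1 of the CC-115 libraries (adjusted p = 0.111 to 0.241).

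PHLPP1, a phosphatase that removes the hydrophobic-motif phosphate from AKT, showed small changes. It measured 28.5, 26.7 and 23.2 CPM in CC-115+Enza libraries, 23.8, 24.6 and 24.6 CPM in CC-223+Enza libraries, and 22.6, 23.5 and 23.4 CPM in CC-115 libraries. NU7441 libraries had 30.2, 26.8 and 31.3 CPM and Enza libraries 39.5, 28.8 and 29.9 CPM, against 27.1, 30.9 and 31.2 CPM in Ctrl libraries. CC-115 and CC-223+Enza libraries were below all Ctrl libraries. The fall under CC-115 was -0.36 ± 0.11 (adjusted p = 6.90e-03) and held in every alternative setting.

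PHLPP1 under CC-223+Enza fell by 0.29 ± 0.11 against Ctrl (adjusted p = 0.0377), and was -0.33 to -0.30, not called, without Ctrl 2, Ctrl 3, CC-223+Enza 1 or CC-223+Enza 2 (adjusted p = 0.0533 to 0.0820). Against Enza it was -0.43 ± 0.11 (adjusted p = 4.79e-03), and without Enza 1 -0.26 (adjusted p = 0.0505). CC-115+Enza against Enza gave -0.32 ± 0.11 (adjusted p = 0.0134), and without Enza 1 -0.12 (adjusted p = 0.309), or -0.21 (adjusted p = 0.157) without CC-115+Enza 3. PHLPP1 in CC-115 was below NU7441 by -0.35 ± 0.11 (adjusted p = 0.0106), and was -0.31 to -0.26, not called, without NU7441 3 or any 1 of the CC-115 libraries (adjusted p = 0.0610 to 0.115).

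The S6 kinases, which phosphorylate ribosomal protein S6 and the translation factor EIF4B downstream of TOR complex, each passed the threshold under a different compound against Ctrl, RPS6KB1 under CC-115 and RPS6KB2 under CC-223. The difference between the genes was not tested. RPS6KB1, the main S6 kinase, had 81.4, 149 and 130 CPM in CC-115+Enza libraries and 138, 128 and 133 CPM in CC-115 libraries. It had 62.3, 66.0 and 65.1 CPM in CC-223+Enza libraries and 70.5, 64.1 and 66.9 CPM in CC-223 libraries. Enza libraries had 53.5, 70.5 and 65.3 CPM, against 80.2, 75.8 and 74.0 CPM in Ctrl libraries. Every library with CC-115 was above every Ctrl library, with CC-115+Enza 1 the nearest. RPS6KB1 rose by 0.79 ± 0.14 under CC-115 against Ctrl (adjusted p = 2.23e-05), and by 0.93 ± 0.14 under CC-115+Enza against Enza (adjusted p = 2.44e-06). CC-223 against Ctrl gave -0.19 ± 0.14 (adjusted p = 0.334), and -0.19 ± 0.06 (adjusted p = 6.36e-03) without Enza 1 and CC-115+Enza 1. CC-115 exceeded CC-223 by 0.98 ± 0.14 (adjusted p = 1.90e-06).

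RPS6KB2, the second S6 kinase, fell under CC-223 and did not pass the threshold under CC-115. It had 48.1, 81.6 and 63.3 CPM in CC-115+Enza libraries and 72.6, 71.6 and 74.9 CPM in CC-115 libraries. CC-223+Enza libraries had 39.2, 41.4 and 42.0 CPM and CC-223 libraries 45.1, 43.8 and 48.2 CPM. Enza libraries had 79.2, 64.0 and 61.9 CPM, against 66.6, 64.3 and 62.5 CPM in Ctrl libraries. Both CC-223 groups were below every Ctrl and Enza library. The log2 fold change was -0.50 ± 0.13 for CC-223 against Ctrl (adjusted p = 5.81e-03), and -0.74 ± 0.13 for CC-223+Enza against Enza (adjusted p = 1.25e-04). For CC-115 against Ctrl it was 0.18 (95% interval -0.08 to 0.44, adjusted p = 0.246), with CC-115 libraries above all Ctrl libraries, and it passed without Enza 1 and CC-115+Enza 1 (adjusted p = 0.0184). CC-115 exceeded CC-223 by 0.68 ± 0.13 (adjusted p = 1.12e-04).

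**Figure D3:**
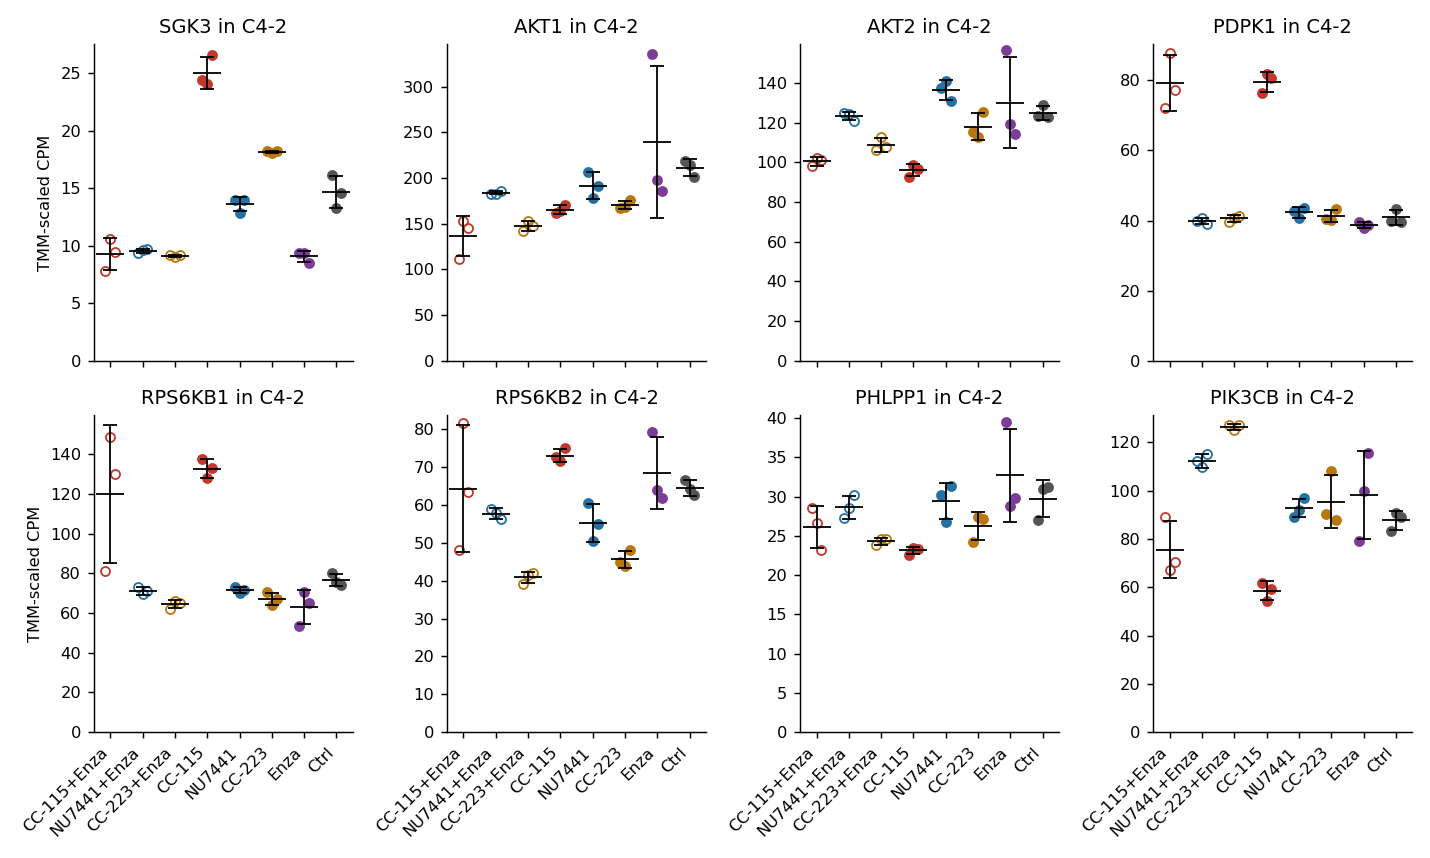
Level of the other 8 genes in TMM-scaled CPM (vertical axes, linear from 0) in each C4-2 library, by group. Points are libraries, open where Enza was added to an inhibitor, and bars are the mean ± SD of 3. PDPK1 and RPS6KB1 are high in the CC-115+Enza and CC-115 groups, RPS6KB2 is low in the CC-223+Enza and CC-223 groups, and Enza 1 is high for AKT1, AKT2 and PHLPP1.

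Counted over the 9 genes, CC-115 changed 8 against Ctrl, where 53.6% of all genes tested were called, with PDPK1, RPS6KB1, SGK3 and SGK1 up and PIK3CB, AKT2, PHLPP1 and AKT1 down. NU7441 changed 0 of 9 against Ctrl by edgeR, where 3.39% of genes were called, and 0 at an unadjusted p under 0.05. By DESeq2 it also changed 0, where 5.24% of genes were called. RPS6KB2 had 60.5, 50.5 and 55.0 CPM in NU7441 libraries, all below Ctrl, which gave -0.22 ± 0.13 (adjusted p = 0.397), and it passed without Enza 1 and CC-115+Enza 1 (adjusted p = 0.0169). CC-223 changed 3, with SGK1 and SGK3 up and RPS6KB2 down, and 23.9% of genes were called. Enza changed 2, SGK1 and SGK3, both down, and 16.1% of genes were called. In a fit without Enza 1 and CC-115+Enza 1 the counts were 6 for CC-223 and 4 for Enza, with 42.8% and 21.4% of all genes called. All of these comparisons share the Ctrl libraries.

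Against Ctrl, CC-115+Enza changed 6 of the 9 genes, with PDPK1 and RPS6KB1 up and SGK1, SGK3, AKT1 and AKT2 down (64.2% of genes called). NU7441+Enza changed 3, with PIK3CB up and SGK1 and SGK3 down (14.6% of genes called). CC-223+Enza changed 6, with PIK3CB up and SGK1, SGK3, RPS6KB2, AKT1 and PHLPP1 down (39% of genes called). Median log2 fold changes of the 9 genes were -0.22, -0.11 and -0.29 in these 3 comparisons, beside 0.11, 0.04 and 0.07 over all genes. The share called among the 9 under CC-115+Enza is near the share of all genes.

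Against Enza, CC-115+Enza changed 7 of the 9, with PDPK1 and RPS6KB1 up and SGK1, AKT1, PIK3CB, AKT2 and PHLPP1 down (58.7% of genes called). CC-223+Enza changed 5 (28% of genes called). NU7441+Enza changed 0 by edgeR (0.381% of genes called), 1 at an unadjusted p under 0.05 and 0 by DESeq2 (1.46% of genes called). Against its inhibitor alone, CC-115+Enza changed 3 (23.8% of genes called), NU7441+Enza 1 (6.08%) and CC-223+Enza 3 (12.4%). SGK3 fell in each of those 3 comparisons, and SGK1 fell with CC-115 and CC-223.

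Interaction tests called SGK1 and SGK3 for CC-115, where 3.27% of genes were called, and SGK1 for CC-223, where 0.376% were called. For NU7441 they called 0 of the 9 by edgeR, 0 at an unadjusted p under 0.05 and 0 by DESeq2, and 0 of all 22860 genes. Between inhibitors, CC-115 differed from CC-223 at 7 of the 9 genes (43.1% of genes called) and from NU7441 at 8 (49% of genes called). NU7441 differed from CC-223 at 2, SGK1 and SGK3, both lower under NU7441 (7.31% of genes called). That SGK3 difference, -0.41 ± 0.10 (adjusted p = 9.71e-03), was -0.40 to -0.35, not called, without NU7441 2, CC-223 1 or CC-223 3 (adjusted p = 0.0560 to 0.0625). With enzalutamide, CC-115 differed from CC-223 at 5 (50.4% of genes called), with PDPK1, RPS6KB1 and RPS6KB2 higher and SGK1 and PIK3CB lower.

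**Figure D4:**
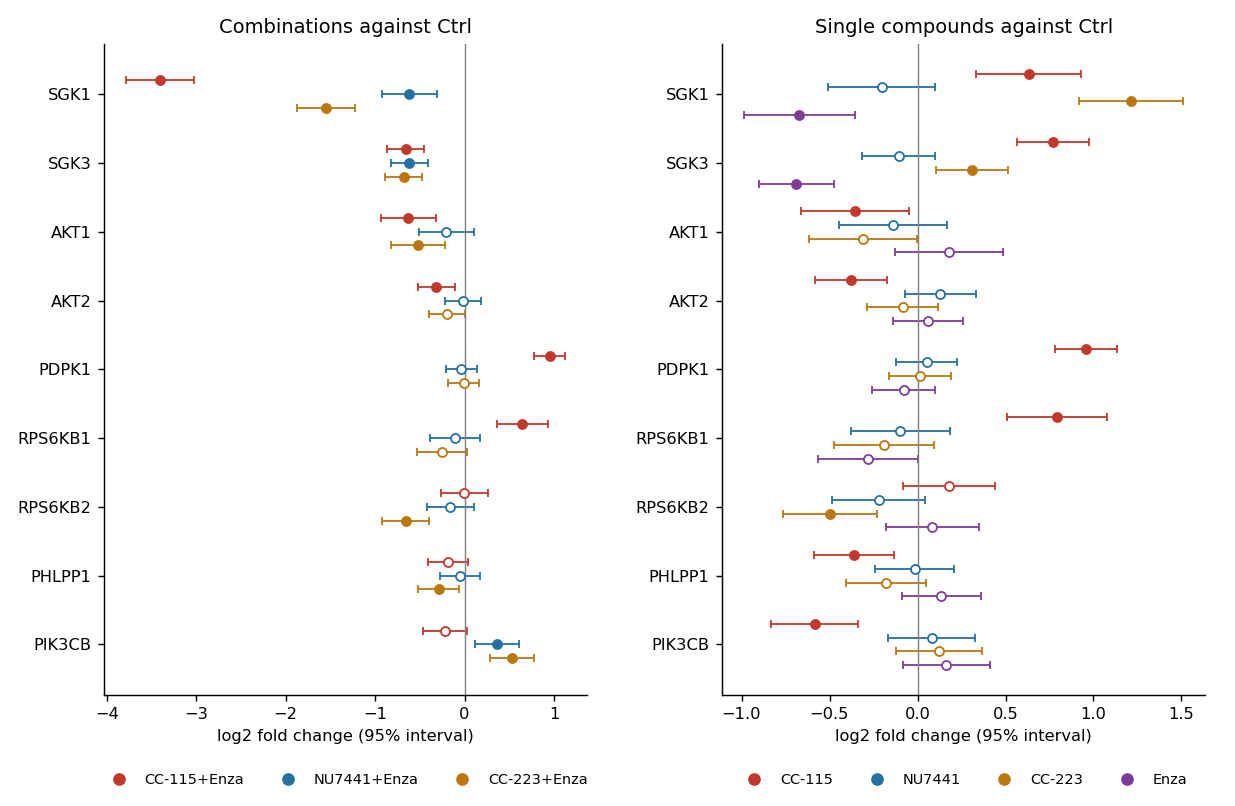
Log2 fold change against Ctrl (horizontal axes, note the wider left axis) for the 9 genes under the combinations and the single compounds in C4-2. Points are edgeR estimates with 95% intervals, filled where the adjusted p was under 0.05. SGK1 lies at -3.41 under CC-115+Enza and at 1.21 under CC-223.

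Levels between genes were compared per kilobase of exon (RPKM from the scaled CPM). In C4-2 Ctrl libraries the mean was 19.5 RPKM for AKT1, 13.4 for PIK3CB, 11.1 for RPS6KB2, 10.0 for RPS6KB1, 8.30 for AKT2, 3.74 for PDPK1, 3.25 for PHLPP1, 2.45 for SGK3 and 0.910 for SGK1. SGK1 was the lowest of the 9 per length in all 10 groups. The length used is that of all annotated exons of a gene, so the order may differ for the transcripts expressed, which was not tested. Under CC-115 the highest was RPS6KB1, at 17.4 RPKM, and under CC-223+Enza it was PIK3CB, at 19.4 RPKM.

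In 22Rv1 the genes stood at other levels, and CC-115 changed 2 of the 9, RPS6KB2 and PDPK1, both up, where 40.9% of genes tested were called. Mean levels in 22Rv1 Control were 0.148 RPKM for SGK1, 0.329 for SGK3, 2.24 for PIK3CB and 2.12 for RPS6KB1. The C4-2 and 22Rv1 levels were scaled apart. RPS6KB2 had 122 and 148 CPM in CC-115 libraries, against 88.6, 89.2 and 85.7 CPM in Control libraries. PDPK1 had 50.8 and 58.6 CPM in CC-115 libraries, against 35.8, 33.7 and 39.3 CPM in Control libraries. The groups did not overlap for either gene. RPS6KB2 rose by 0.62 ± 0.13 (adjusted p = 6.49e-03) and PDPK1 by 0.59 ± 0.14 (adjusted p = 0.0111). The PDPK1 call was lost without Control 1, Control 2 or CC-115 2, at 0.58, 0.53 and 0.49 (adjusted p = 0.0531, 0.0592 and 0.0565).

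SGK1 in 22Rv1 had 1.66 and 0.486 CPM in CC-115 libraries, from 72 and 14 reads, against 1.75, 1.37 and 1.32 CPM in Control libraries. One CC-115 library lay within the Control range and the other below it, so no direction is given (log2 fold change -0.41, 95% interval -1.40 to 0.59, adjusted p = 0.481). It was -1.61 (adjusted p = 0.0137) without CC-115 1 and 0.16 (adjusted p = 0.717) without CC-115 2. SGK3 had 1.43 and 1.49 CPM in CC-115 libraries, against 1.90, 2.15 and 1.84 CPM in Control libraries, a change of -0.43 ± 0.21 (adjusted p = 0.138). PIK3CB had 11.1 and 8.64 CPM in CC-115 libraries, against 14.6, 17.4 and 11.9 CPM in Control libraries. Its change of -0.57 ± 0.22 missed the threshold (adjusted p = 0.0711) and passed it without Control 3 (-0.68, adjusted p = 0.0339), and without Control 3 and CC-115 2 (-0.50, adjusted p = 2.37e-03).

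RPS6KB1 in 22Rv1 had 15.8 and 11.2 CPM in CC-115 libraries, against 17.2, 19.4 and 12.015 CPM in Control libraries (-0.26, 95% interval -0.84 to 0.31, adjusted p = 0.431). AKT2 gave -0.13 (95% interval -0.43 to 0.16, adjusted p = 0.429), and -0.19 (adjusted p = 0.0499) without Control 3 and CC-115 2. PHLPP1 gave 0.12 (95% interval -0.23 to 0.48, adjusted p = 0.555). AKT1 had 225 and 298 CPM in CC-115 libraries, against 255, 254 and 289 CPM in Control libraries, which overlapped. Protein-coding genes held 66.8% and 68.7% of counts in the CC-115 libraries and 74.4% to 76.4% in the Control libraries, and the part of this in the changes was not tested.

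The CC-115 effect differed between lines at 4 of the 9 genes, where 27.5% of genes were called. The effect in C4-2 minus that in 22Rv1 was 1.15 ± 0.19 for SGK3 (adjusted p = 6.06e-04) and 1.00 ± 0.24 for RPS6KB1 (adjusted p = 7.75e-03). It was -0.54 ± 0.14 for PHLPP1 (adjusted p = 0.0106) and -0.49 ± 0.12 for RPS6KB2 (adjusted p = 7.75e-03). The RPS6KB2 difference became -0.30 (adjusted p = 0.0828) without 22Rv1 CC-115 2, and the PHLPP1 difference was no longer called without 22Rv1 Control 2 (-0.44, adjusted p = 0.0502). For SGK1 the difference was 0.95 ± 0.39 (adjusted p = 0.0927), and 2.23 (adjusted p = 2.10e-04) without 22Rv1 CC-115 1. For PDPK1 it was 0.32 ± 0.13 (adjusted p = 0.0918), and it passed without 22Rv1 CC-115 2 (0.47, adjusted p = 0.0213) or Control 2 (0.43, adjusted p = 0.0288). The lines were not sequenced in matched groups beyond CC-115, and a difference between lines cannot be told apart from one between their sets of libraries.

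**Figure D5:**
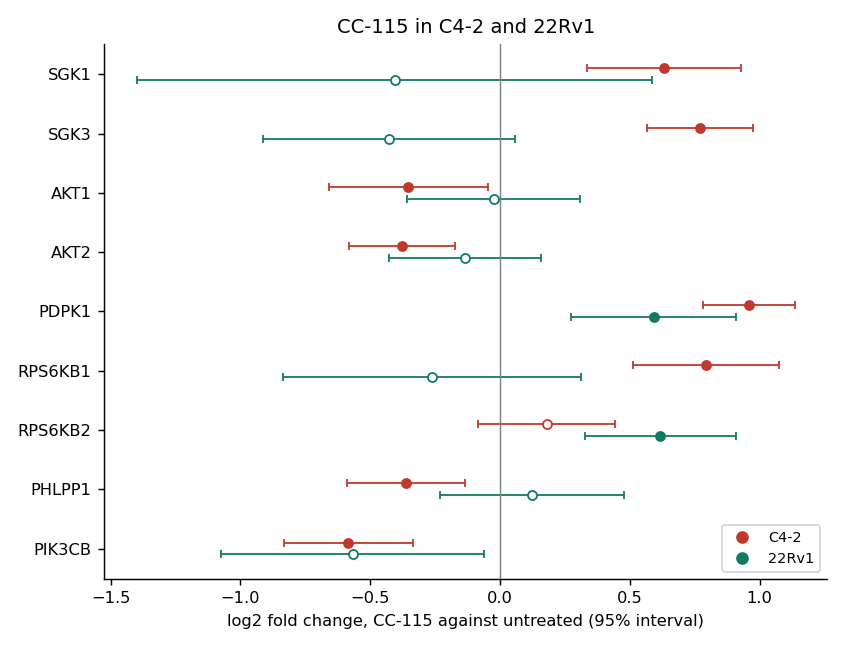
Log2 fold change under CC-115 against untreated cells (horizontal axis) for the 9 genes in C4-2 and 22Rv1. Points are edgeR estimates with 95% intervals, filled where the adjusted p was under 0.05. SGK3 and RPS6KB1 rose in C4-2, at 0.77 and 0.79, and lay at -0.43 and -0.26 in 22Rv1.

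Genes around the 9 in the same pathway were taken from 7 lists with 87 genes. Their counts stand beside the shares of all genes called, 53.6% under CC-115, 23.9% under CC-223 and 16.1% under Enza, and nothing particular to a list is read from them. Of 9 tested PI3K subunits other than PIK3CB, 3 rose and 4 fell under CC-115, with a median log2 fold change of -0.11 beside 0.03 over all genes. PIK3R3, a regulatory subunit, fell by 2.20 ± 0.10 in C4-2 (adjusted p = 3.00e-15) and by 2.17 ± 0.16 in 22Rv1 (adjusted p = 1.56e-04). PIK3C3, the class III enzyme of endosomes and autophagy, rose by 1.02 ± 0.11 under CC-115, and PIK3CA, which encodes the alpha catalytic subunit, rose by 0.75 ± 0.12. Of these subunits 2 rose and 1 fell under CC-223, and likewise under Enza.

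Of 9 phosphoinositide phosphatases tested, 5 rose and 1 fell under CC-115, with a median of 0.23 beside 0.03 over all genes. INPP4B, a phosphatase that removes a lipid ligand of AKT, averaged 75.6 ± 5.88 CPM in CC-115 libraries and 4.62 ± 0.79 CPM in Enza libraries, against 27.2 ± 1.57 CPM in Ctrl libraries (SD, n = 3 each). It rose by 1.48 ± 0.14 under CC-115 and fell by 2.55 ± 0.16 under Enza (adjusted p = 1.73e-09 and 4.59e-12, edgeR). INPP5K rose by 2.01 ± 0.13 and INPPL1 by 1.44 ± 0.11 under CC-115. Both lipid phosphatases also rose in 22Rv1, by 1.49 ± 0.13 and 1.21 ± 0.16.

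Among 10 tested kinases related to AKT, SGK and S6 kinase, 3 rose and 4 fell under CC-115. The remaining SGK, SGK2, fell by 1.44 ± 0.29 under CC-115, by 0.96 ± 0.29 under CC-223 and, in 22Rv1, by 1.29 ± 0.15 under CC-115. RPS6KA2, a ribosomal S6 kinase of the RSK group, rose by 1.24 ± 0.15 under CC-115, and RPS6KA3 of the same group fell by 1.06 ± 0.11 under Enza. Of 11 other AGC kinases, 2 rose and 2 fell under CC-115, where 53.6% of all genes were called, and 4 rose and 1 fell under Enza. PRKCZ, an atypical protein kinase C, rose by 0.96 ± 0.14 under CC-115. Of 11 AKT phosphatases and inhibitors other than PHLPP1, 1 rose and 7 fell under CC-115 (median -0.36 beside 0.03 over all genes), and 1 rose and 5 fell under CC-223 (median -0.27 beside 0.07). TRIB3, a pseudokinase known to bind AKT, fell by 1.13 ± 0.13 under CC-223, and TRIB2 fell by 1.14 ± 0.09 under CC-115 and rose by 0.64 ± 0.09 under CC-223.

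Of 18 genes for substrates of these kinases, 8 rose and 3 fell under CC-115, 6 rose and 0 fell under CC-223, and 1 rose and 4 fell under Enza. All genes were called at 53.6%, 23.9% and 16.1% in these comparisons. Medians were 0.23, 0.14 and -0.10, beside 0.03, 0.07 and 0.06 over all genes. The RNA of NDRG1, whose protein is a substrate of SGK1, averaged 41.1 ± 7.61 CPM in CC-115+Enza libraries, 44.9 ± 2.01 in CC-223+Enza, 128 ± 7.11 in CC-115, 216 ± 5.39 in CC-223 and 39.1 ± 5.06 in Enza, against 59.0 ± 2.88 in Ctrl (SD, n = 3 each). It rose under CC-115 by 1.12 ± 0.12 and under CC-223 by 1.87 ± 0.12, and its interactions with Enza were -1.05 ± 0.16 and -1.68 ± 0.16 (adjusted p = 2.31e-04 and 1.74e-06, edgeR). Unlike for SGK1, CC-115+Enza against Enza gave 0.07 ± 0.12 (adjusted p = 0.613). FOXO3, a transcription factor that AKT and SGK keep out of the nucleus, rose by 0.94 ± 0.09 under CC-115 and by 0.74 ± 0.09 under CC-223.

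Steroid receptor induced genes were listed beside SGK1, and of the 13 tested 3 rose and 8 fell under Enza (median -0.60 beside 0.06 over all genes). Under CC-115, 5 rose and 6 fell, and under CC-223, 5 rose and 0 fell. FKBP5, a chaperone of steroid receptors, averaged 30.4 ± 3.74 CPM in CC-115+Enza libraries, 62.1 ± 4.17 in CC-223+Enza, 180 ± 6.69 in CC-115, 468 ± 32.3 in CC-223 and 85.6 ± 4.21 in Enza, against 247 ± 25.9 in Ctrl (SD, n = 3 each). Its interactions with Enza were -1.03 ± 0.20 with CC-115 and -1.39 ± 0.20 with CC-223 (adjusted p = 2.28e-03 and 3.23e-04, edgeR). Interaction tests called 6 of the 13 as lower with CC-115 and 2 with CC-223, none higher. Over all genes, 3.27% were called in the interaction with CC-115 and 0.376% in that with CC-223. TSC22D3, the glucocorticoid-induced leucine zipper gene, rose by 1.73 ± 0.14 under CC-115 and by 0.53 ± 0.13 under Enza, and ZBTB16 fell by 1.37 ± 0.17 under Enza.

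The genes most like SGK1 were sought by Pearson correlation of mean log2 CPM over the 8 C4-2 group means, among 11415 protein-coding genes. They were SORD (r = 0.97), TNFAIP8 (0.96), KLB (0.96), GLYATL1 (0.96) and NHERF2 (0.96). TNFAIP8 averaged 1.66 CPM in CC-115+Enza and 9.21 CPM in Enza, against 29.8 CPM in Ctrl. Under CC-115, where SGK1 rose, TNFAIP8 averaged 20.91 CPM. SORD was also lower under CC-115 than in Ctrl, at 391.82 against 441.89 CPM. GLYATL1 was about the same, at 65.73 against 66.23 CPM, and KLB stayed between 5.18 and 7.44 CPM over all groups. NHERF2 was higher, at 48.94 against 44.14 CPM. A high correlation here thus did not require the SGK1 rise under CC-115. Among those most like PIK3CB were WNK3 (0.99), GSTA4 (0.99), ASCL2 (0.98) and FAM184A (0.98). WNK3 averaged 78.0 CPM in CC-223+Enza and 15.3 CPM in CC-115, against 37.8 CPM in Ctrl. These values describe 8 group means of libraries prepared for one experiment, and with so many genes compared high values occur among them.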

How the data were processed

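Total RNA of C4-2 and 22Rv1 cells was sequenced from libraries made with a stranded, ribosomal RNA depleting kit, per the labels' protocols. The deposited values are raw counts per Ensembl feature, not normalized. Per the submitters' processing notes the authors used STAR 2.5.2a, hg19, featureCounts 1.5.0-p3 and DESeq2 1.14.1. Which strand setting, annotation release and treatment of multiply aligned reads applied is not given in the sources used here.

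Groups came from sample titles. All C4-2 libraries were fitted together, the 22Rv1 libraries apart, and C4-2 Ctrl and CC-115 jointly with 22Rv1 for the difference between lines. Genes passing filterByExpr (22860, 19392 and 22922) were scaled by TMM and tested in edgeR 4.0.16 with robust quasi-likelihood F-tests (R 4.3.3, limma 3.58.1). P-values were Benjamini-Hochberg adjusted over all genes of a comparison, and genes under 0.05 were called. An SE was derived from the F statistic of a gene (fold change over root F). In levels, RPKM is scaled CPM per kilobase of exon.

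Alternatives were median-of-ratios scaling, DESeq2 1.42.0, no filter, a filter of at least 50 counts, protein-coding genes only, only the groups compared, a replicate block, each library left out, and the libraries that stand apart left out. Leaving out 22Rv1 Control 3 and CC-115 2 was added after seeing the data. A fit with 1 library in a group assumes that it varies like the others. Scripts were tested on simulated counts. The members, lists and alternatives were chosen with earlier results of these data known. All 9 genes are described. One gene most like PIK3CB is not reported here. Up to 3 called list genes per direction with the largest change qualified for naming. SGK3 has no RefSeq promoter entry in the table used. Of 18 cell type markers 17 were measured. Depth differed between some groups, with 29.68, 29.58 and 33.5 M counts in CC-223 libraries and 39.5, 33.91 and 39.77 M in CC-223+Enza libraries. The lowest chi-square per degree of freedom between libraries of a group was 4.01. No libraries within a group were therefore duplicates, and the spread between them exceeded counting error. Libraries of different groups were not compared in this way. Figures used Python 3.11.15, pandas 2.3.3, numpy 2.4.6 and matplotlib 3.10.9.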

Additional observations from a re-analysis of the deposited data

Results flagged for a closer look

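Effects differed between conditions by a test of the difference itself in 7 cases. The interaction of Enza with CC-115 was -3.37 for SGK1 and -0.74 for SGK3, and that of Enza with CC-223 was -2.09 for SGK1, all on the log2 scale. The SGK1 terms held in all 20 alternatives run for each, and the SGK3 term in 19 of 20. The CC-115 effect in C4-2 minus that in 22Rv1 was 1.15 for SGK3, 1.00 for RPS6KB1, -0.54 for PHLPP1 and -0.49 for RPS6KB2. The SGK3 difference held in all 18 alternatives run, the RPS6KB1 difference in 17, the PHLPP1 difference in 16, and the RPS6KB2 difference in 15. 22Rv1 had 2 CC-115 and 3 Control libraries, and groups of 3 or fewer are too small for a test of single outlying libraries.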

How the results depend on the processing

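The 4 SGK1 changes in the combinations kept direction and call in every alternative. The range with 1 library left out ran -2.99 to -2.49 around -2.73 for CC-115+Enza against Enza, -0.98 to -0.79 around -0.88 for CC-223+Enza against Enza, -4.34 to -3.79 around -4.04 for CC-115+Enza against CC-115, and -2.84 to -2.65 around -2.76 for CC-223+Enza against CC-223. Over the member gene values followed through the alternatives, 1237 recomputed values stayed on their side of the threshold, 93 lost it, 27 gained it and 4 turned direction. Printed values of list genes, and some uncalled values of the members, are not among these. The cause was not tested.

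Called counts of the 9 genes are given with the share of all genes called in the same fit. Fitting only the groups compared gave 1 for NU7441 against Ctrl (13.8%), 6 for CC-223 against Ctrl (47.5%), 5 for NU7441+Enza against Ctrl (39.7%), 4 for CC-115+Enza against Enza (39.3%), 2 for CC-223+Enza against Enza (18.9%), 3 for NU7441+Enza against NU7441 (13.8%), 5 for CC-223+Enza against CC-223 (36.5%), 4 for NU7441 against CC-223 (21.3%) and 1 for the interaction with CC-115 (0.758%). Without Enza 1 and CC-115+Enza 1, NU7441 against Ctrl gave 1 (21.7%), CC-223 against Ctrl 6 (42.8%), Enza against Ctrl 4 (21.4%), NU7441+Enza against NU7441 4 (15.7%) and NU7441 against CC-223 5 (25.2%). With no low-count filter, NU7441 against CC-223 gave 1 (3.4%) and the difference between lines 1 (12.2%). Without 22Rv1 Control 3 and CC-115 2, CC-115 in 22Rv1 gave 4 (53.3%), and SGK1 there turned to 0.12.

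Leaving out 1 library gave 0 to 1 for NU7441+Enza against Enza (0% to 4.96% of all genes), 3 to 6 for CC-223+Enza against Enza (19.3% to 29.1%), 1 to 2 for NU7441+Enza against NU7441 (4.17% to 5.16%), 2 to 5 for CC-115+Enza against CC-115 (15.1% to 33.1%), 1 to 2 for NU7441 against CC-223 (3.72% to 7.12%), 1 to 3 for CC-115 in 22Rv1 (24.5% to 43.9%) and 4 to 7 for the difference between lines (20.2% to 34.7%). Of single genes, PIK3CB in Enza against Ctrl ranged from -0.002 (without Enza 3) to 0.26, SGK3 in CC-115+Enza against Enza from -0.039 (without CC-115+Enza 2) to 0.14, and SGK1 under CC-115 in 22Rv1 from -1.61 to 0.16 (without CC-115 2).

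Replicate numbers did not pair the C4-2 libraries: deviations from group means of same-numbered libraries had a median correlation of -0.0045 (lowest -0.342) over 84 pairs, 5 above 0.1, and in 24 of the 84 the own number gave the highest correlation. With the number as a replicate block the SGK1 changes were -2.74, -0.88, -4.04 and -2.77 in the order above. With the block, calls were lost for AKT1 for CC-115 against Ctrl (adjusted p = 0.0609), PHLPP1 for CC-223+Enza against Ctrl (0.0515) and PIK3CB for NU7441+Enza against Ctrl (0.0628), and added PIK3CB in 22Rv1 (0.0350) and SGK1 in the difference between lines (0.0262). Counts were 7 for CC-115, 2 for NU7441+Enza and 5 for CC-223+Enza against Ctrl, 3 in 22Rv1 and 6 for the lines (52.5%, 13.2%, 37.4%, 43.3% and 30.5% of all genes), with no other count moved. Depth limits SGK1 most, at 14 to 79 reads in 22Rv1 and 21 to 54 in CC-115+Enza.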
